A study of Mus musculus with 30 samples.

Results

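The genes described here are the 40 listed members of the amino-acid stress and unfolded-protein responses, taken by symbol from 50686 annotated genes whose reads were counted in 18 mouse RNA libraries. All 40 were found. They fall into 23 genes linked to the transcription factor Atf4 (9 regulators and stress effectors, 8 enzymes and 6 amino-acid transporters) and 17 genes of the unfolded-protein response (5 sensors and signal carriers and 12 endoplasmic reticulum chaperones and folding factors). The study put retroviral vectors into 2 mouse lines of haematopoietic stem and progenitor type. The RNA samples of HPC7 carry the strain label 129SV and those of HPCLSK C57BL/6N, but the chromatin samples of HPC7 in the series carry C57BL/6N as well, so the strain of HPC7 is not settled. Each line held either a dsRed vector with no insert (called empty vector below), the same kind of vector with STAT3, or one with STAT3Y640F, which gives 6 groups of 3 libraries. STAT3Y640F has phenylalanine in place of a tyrosine of the SH2 domain and is known from lymphoid leukaemias as an activating change. All groups grew in IMDM with stem cell factor and serum and received no treatment; only HPCLSK cells were kept on agarose-coated plates. By the series text the replicates are technical, and every p-value below therefore measures only the spread between these libraries. The endogenous Stat3 gene was still present in both lines.

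Atf4 is the effector of the integrated stress response. When amino acids run short, the kinase encoded by Eif2ak4 phosphorylates the translation factor eIF2, and when unfolded proteins build up in the endoplasmic reticulum the kinase encoded by Eif2ak3 does the same; most translation then slows while that of Atf4 rises, and Atf4 protein binds C/EBP-ATF response elements in genes for amino-acid synthesis, amino-acid uptake and stress control. The unfolded-protein response has 2 further arms, Ern1, which splices Xbp1 messenger RNA, and Atf6, which is cleaved to a transcription factor; both act on chaperone genes through endoplasmic reticulum stress response elements. RNA counts per gene show neither the translation of Atf4, nor the splicing of Xbp1, nor the cleavage of Atf6.

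Promoter stretches of 5 Atf4-linked members called between groups, and of Hspa5 as a chaperone gene, are shown first, because the response elements of the pathway lie in them. RefSeq gives a start site window of 300 bases (250 before the start and 50 after, GRCm38.p6) for 35 of the 40 members. In the stretches below, each read 5′ to 3′ on the strand of the gene, capitals mark the match to a C/EBP-ATF response element (searched as TGATGNAAN on both strands, so that a match on the other strand shows its reverse complement) or, for Hspa5, to an endoplasmic reticulum stress response element (searched as CCAAT, any 9 bases and CCACG, on both strands).
Slc7a11, chr3:50443628-50443704, minus strand: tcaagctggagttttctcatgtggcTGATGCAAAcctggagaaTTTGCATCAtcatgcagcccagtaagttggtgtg
Asns, chr6:7693210-7693257, minus strand: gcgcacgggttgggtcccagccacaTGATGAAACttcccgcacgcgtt
Nupr1, chr7:126625548-126625606, minus strand: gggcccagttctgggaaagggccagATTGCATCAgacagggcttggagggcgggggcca
Vldlr, chr19:27216794-27216852, plus strand: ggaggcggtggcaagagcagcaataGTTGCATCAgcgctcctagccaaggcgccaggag
Pycr1, chr11:120643818-120643876, minus strand: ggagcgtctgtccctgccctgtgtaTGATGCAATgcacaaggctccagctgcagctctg
Hspa5, chr2:34772000-34772068, plus strand: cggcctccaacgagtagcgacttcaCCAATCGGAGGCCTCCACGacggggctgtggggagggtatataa
Slc7a11 holds 2 such matches, which face each other from opposite strands. The C/EBP-ATF letters were found in 8 of the 35 members with a window (Asns, Chac1, Herpud1, Nupr1, Pycr1, Slc7a11, Trib3 and Vldlr), which is 7 of 21 Atf4-linked members and 1 of 14 unfolded-protein members, against 4.5% of 27025 genes with a window. The stress response element was found in 6 of 14 unfolded-protein members (Calr, Creld2, Dnajc3, Hsp90b1, Hspa5 and Pdia6) and in 0 of 21 Atf4-linked members, against 0.14% of all genes. Herpud1 alone among the members held the second form of that element (ATTGG, any base and CCACG), which 0.04% of genes hold. The strict STAT letters TTCCNGGAA were found in the window of Eif2ak3 and in 1.35% of genes, and the looser TTCNNNGAA, which also takes in every strict match, in Aldh18a1, Eif2ak3, Nupr1, Shmt2, Slc7a1 and Slc7a11, and in 9.55% of genes. These matches are a description of the letters in the windows and no test of binding.

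The libraries held 9537258 to 38556669 counts, so that 3 counts, taken here as the floor of detection, correspond to 0.0778 to 0.3146 CPM (counts scaled to a common library size). Mitochondrial genes took 1.739 to 3.188% of counts. As a check of the vectors, Stat3 in HPC7 was at 227 ± 10.1 CPM in empty vector cells, 1010 ± 22.6 CPM in STAT3 cells and 684 ± 18.8 CPM in Y640F cells (SD, n = 3). In HPCLSK it was at 349 ± 12.4, 591 ± 41.5 and 1880 ± 44.5 CPM. Y640F cells thus had less Stat3 RNA than STAT3 cells in HPC7 and more in HPCLSK, and the changed residue cannot be told apart from the Stat3 level in comparisons between these vectors. All HPC7 libraries came from one flow cell and all HPCLSK libraries from another, so line, any strain difference, plates and sequencing run cannot be told apart either. Among HPCLSK libraries, replicate 1 of the empty vector and replicate 1 of Y640F stood apart from the other libraries of their groups: counts differed from them by 8.06 to 10.62 and by 21.25 to 27.04 in chi-square per degree of freedom, against 2.49 and 3.3 between the other replicates of each group. In HPC7 the 3 empty vector libraries differed among themselves by 10.29 to 20.19 on the same measure, and every other pair in the study by 3.17 to 6.36. All libraries are bulk RNA, in which fewer cells of a type and less RNA per cell cannot be told apart.

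With the empty vector, chaperones were the most abundant members per kilobase of exon in both lines. In HPC7 Calr led with 456 ± 17.4 CPM per kilobase, followed by Hsp90b1 (279 ± 8.97) and Hspa5 (257 ± 14.9), which encode the calcium-binding folding factor calreticulin, Grp94 and BiP. In HPCLSK Calr was at 783 ± 11.2 CPM per kilobase, Hsp90b1 at 196 and Hspa5 at 192. The levels of Hsp90b1 and Hspa5 lay close together in both lines. Atf4 itself was at 96.6 CPM per kilobase in HPC7 and at 144 ± 12.8 in HPCLSK, near the serine synthesis enzyme Psat1 (109 and 142). Apart from the genes near 0 described next, the least abundant members were the stress factor Nupr1, the glycine transporter Slc6a9 and the pseudokinase Trib3 in HPC7 (0.0592, 0.23 and 0.627 CPM per kilobase), and Nupr1, Slc7a11 and Chac1 in HPCLSK (0.631, 1.02 and 1.08).

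**Figure D1:**
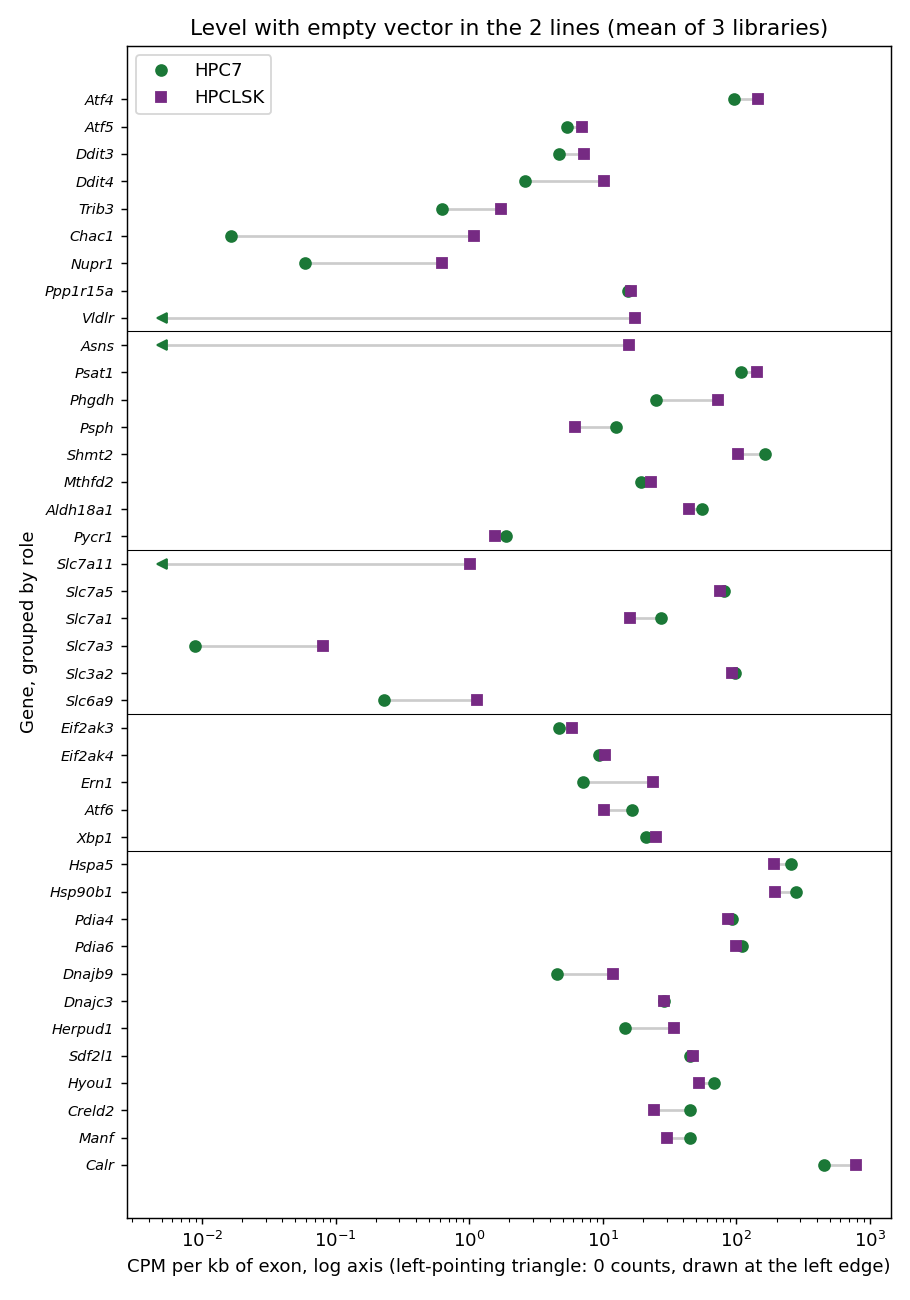
Levels of the members in empty vector cells, in CPM per kilobase of exon on a log axis, as the mean of 3 libraries for HPC7 and for HPCLSK; a triangle at the left edge marks 0 counts. Calr, Hsp90b1 and Hspa5 lead in both lines, while Asns, Vldlr and Slc7a11 are at 0 counts in HPC7 only.

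Asns, Vldlr, Slc7a11 and Chac1 were at or near 0 in HPC7 whatever the vector. Asns makes asparagine, Vldlr is a lipoprotein receptor, Slc7a11 is the cystine transporter of system xc- and Chac1 degrades glutathione. Over its 3 empty vector libraries HPC7 had 0 counts of Asns, against 2401 in HPCLSK, at least 1260-fold higher in HPCLSK when the 0 is set to 3 counts over the group. Vldlr had 0 against 9569 counts, at least 5024-fold higher, and Slc7a11 had 0 against 808 counts, at least 424.2-fold higher. Chac1 had 2 against 96 counts, which is 75.6 times as many after scaling (95% counting interval 20.4 to 633). Over all 9 libraries of HPC7 (283443056 counts) Asns and Vldlr stayed at 0, Slc7a11 had 3 counts and Chac1 had 7. In HPCLSK the 9 libraries (148986717 counts) held 11225, 19862, 12115 and 364. Such genes were not confined to this pathway: of 8927 genes at 10 CPM or more in HPCLSK, 90 (1.01%) had 0 counts in HPC7. The neighbouring genes were mixed. C1galt1 beside Asns (37.1 CPM in HPC7 and 78.7 in HPCLSK), Pum3 beside Vldlr (307 and 134) and Ino80 beside Chac1 (90.2 and 93.3) were detected in both lines. Gm6209, the nearest gene after Slc7a11, had 0 counts in HPC7 and 241 in HPCLSK, and Noct, 780833 bases from Slc7a11, was at 24.1 and 32.1 CPM. Before Vldlr, Smarca2 (438162 bases away) was at 70.5 CPM in HPC7 and 206 in HPCLSK. Dmrt2, 1537474 bases before Vldlr, had 513 counts in HPC7 and 0 in HPCLSK. Gm9825, 289287 bases after Asns, was at 39.3 and 0.282 CPM. The arginine transporter Slc7a3 was near the floor in both lines, with 14 counts over all HPC7 and 50 over all HPCLSK libraries.

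Because of these low values, 35 members passed the filter on low counts and were tested within HPC7 (all but Asns, Vldlr, Slc7a11, Chac1 and Slc7a3), and 39 within HPCLSK and across the lines (all but Slc7a3). A member was called higher or lower at an adjusted p under 0.05 (edgeR's quasi-likelihood test, Benjamini-Hochberg adjustment across every gene tested) with at least a 2-fold change, and "rose" and "fell" are used of that or, where said, of the adjusted p alone. Between the lines with the empty vector, 12 of 39 members were higher and 1 was lower in HPCLSK, where 22.8% of all genes tested were called higher and 13.6% lower. By adjusted p alone 20 were higher and 11 lower, against 41.6% and 39% of all genes. Both counts of higher members include Asns, Vldlr, Slc7a11 and Chac1. These 4 passed the filter only through their HPCLSK libraries, so their direction was fixed in advance. Besides the 4 genes near 0 in HPC7, the higher ones were Nupr1 (log2 fold change 3.43), Slc6a9 (2.32), the mTORC1 inhibitor Ddit4 (1.95), the sensor Ern1 (1.73 ± 0.07 SE, adjusted p = 8.1e-14), the serine synthesis enzyme Phgdh (1.53), Trib3 (1.52), the co-chaperone Dnajb9 (1.39) and the degradation factor Herpud1 (1.22). The call of Trib3 was lost without HPCLSK empty vector replicate 2 (1.28, adjusted p = 0.057) or 3 (1.22, adjusted p = 0.06). Phgdh lies on chromosome 3, where the median log2 difference of all genes tested was 0.924. The last enzyme of serine synthesis, Psph, was lower by a log2 fold change of -1.02, a value that came under the minimum without HPCLSK empty vector replicate 1 (-0.95) or HPC7 empty vector replicate 3 (-0.99).

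Over the vectors, the Atf4-linked genes held most of the calls and moved mainly upward with Y640F, while the chaperones changed by less than 2-fold in every comparison. In HPC7 with Y640F against the empty vector 6 of 35 members rose and 0 fell, where 4.54% of genes tested rose and 3.64% fell. That count, and those of Atf4-linked members and regulators in HPC7 below, include Nupr1. In HPC7 Nupr1 passed the filter only through its Y640F libraries, so its direction in this contrast was fixed in advance. In HPCLSK the same contrast called 6 of 39 higher and 0 lower, where 9.62% of genes rose and 6.57% fell. Of the 18 Atf4-linked members tested in HPC7, 15 were higher and 0 lower by adjusted p alone, with a median log2 fold change of 0.71, against 29.5% higher and 27.8% lower over all genes and a median of 0.00. Of 22 tested in HPCLSK, 13 were higher and 1 lower (median 0.34), against 30.6% and 28% of all genes and a median of -0.01. The 17 unfolded-protein members split: 4 were higher and 6 lower in HPC7 by adjusted p alone (median -0.09), and 9 were higher and 5 lower in HPCLSK (median 0.16). Among the roles, the 9 Atf4-linked regulators had 4 of 7 tested members called in HPC7 and 2 of 9 in HPCLSK, the 8 enzymes 1 of 7 and 1 of 8, and the 6 transporters 1 of 4 and 2 of 5.

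**Figure D2:**
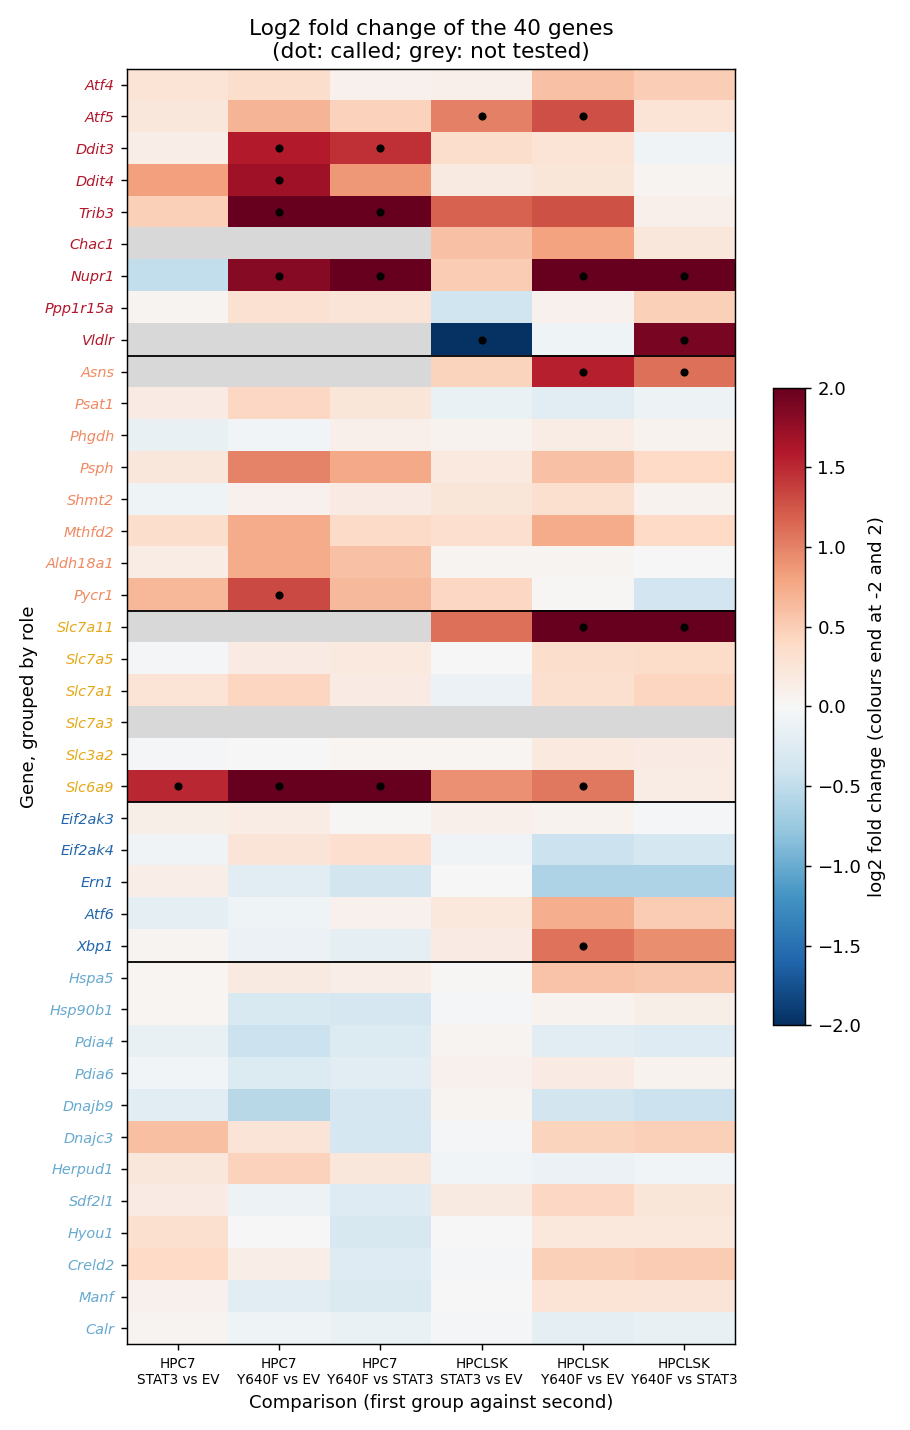
Log2 fold changes of the 40 members (rows, grouped by role) in the 6 comparisons within a line (columns); colours end at -2 and 2, a dot marks a called change and grey a gene that was not tested. Dots lie mainly among the Atf4-linked genes in the Y640F columns, and the rows of the 12 chaperones hold none.

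With STAT3 lacking the changed residue, 1 member rose by at least 2-fold in HPC7. Slc6a9, which imports glycine, was at 1.14, 1.12 and 1.32 CPM with the empty vector and at 3.71, 2.96 and 3.68 CPM with STAT3. It was the member called, of 35 tested (log2 fold change 1.51 ± 0.16 SE, adjusted p = 2.9e-06), where 1.81% of all genes rose and 5.41% fell. Among changes under 2-fold by adjusted p alone, Ddit4 went from 4.71, 4.51 and 4.71 CPM to 7.57, 9.18 and 7.96 (0.83 ± 0.10, adjusted p = 1.4e-05). Pycr1, which makes proline, went from 8.05, 6.97 and 7.35 CPM to 11.9, 11.5 and 12.2 (0.67 ± 0.10, adjusted p = 6.9e-05). In both genes each STAT3 library lay above each empty vector library. The co-chaperone Dnajc3, also known as p58IPK, an inhibitor of eIF2 kinases, went from 148 to 154 CPM with the empty vector to 227 to 235 with STAT3 (0.61 ± 0.04, adjusted p = 1.8e-08). Creld2 (0.39), Hyou1 (0.32), Herpud1 (0.23) and Ern1 (0.14) were also higher, and Atf6 (-0.18) and Pdia4 (-0.15) lower, by adjusted p alone. Atf6 lies on chromosome 1, whose median in this contrast was -0.345, so that relative to its chromosome the direction turns (0.16). In total 9 of 18 Atf4-linked members were higher and 0 lower by adjusted p alone (median 0.20), where 23.3% of genes were higher and 25.3% lower. Of these 9, Psph (0.23) and Slc7a1 (0.27) lie on chromosome 5, whose median was 0.359, and relative to it they were at -0.13 and -0.09. Psat1 (0.167) and Aldh18a1 (0.154), also among the 9, lie on chromosome 19, whose median was 0.102. Relative to that chromosome they were at 0.064 and 0.051. Of the 17 unfolded-protein members 5 were higher and 2 lower by adjusted p alone (median 0.06).

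With Y640F in HPC7 the regulators Trib3, Ddit3, Ddit4 and Nupr1 rose. Trib3, a pseudokinase that binds Atf4 and Akt, was at 1.53, 1.16 and 1.35 CPM with the empty vector, 2.44, 1.63 and 1.59 in STAT3 cells, and 21.2, 17.6 and 17.7 in Y640F cells (chr2:152337422-152344032). Its log2 fold change was 3.79 ± 0.15 against the empty vector (adjusted p = 4.7e-10) and 3.32 ± 0.14 against STAT3 (adjusted p = 5.9e-10). The STAT3 and empty vector groups lay close together and every Y640F library was far above both. Chromosome 2, on which Trib3 lies, had a median log2 fold change of 0.474 over all its genes with Y640F against the empty vector, and Trib3 exceeded that median by 3.32. Ddit3, which encodes the transcription factor CHOP, was at 8.64, 8.34 and 7.44 CPM, then 8.72, 8.99 and 8.91, then 25.4, 24.2 and 23.6, a log2 fold change of 1.59 ± 0.07 over the empty vector (adjusted p = 1.4e-09) and 1.46 ± 0.07 over STAT3 (adjusted p = 1.9e-09).

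Ddit4 had an intermediate level with STAT3: its Y640F libraries stood at 16.1, 15.1 and 14.3 CPM, above those of STAT3 and of the empty vector given above. The log2 fold change of Ddit4 was 1.70 ± 0.10 over the empty vector (adjusted p = 8e-09) and 0.87 ± 0.09 over STAT3 (adjusted p = 1.6e-06), the latter under the fold minimum. Nupr1, a small chromatin-associated stress protein, rested on few reads in this line: 3, 5 and 4 counts with the empty vector, 2, 2 and 6 in STAT3 cells and 18, 16 and 19 in Y640F cells. Its Y640F libraries (0.6, 0.49 and 0.486 CPM) were above all others of the line. Nupr1 passed the filter on low counts in HPC7 only through these libraries, so its direction with Y640F was fixed in advance. The log2 fold changes were 1.82 ± 0.42 (adjusted p = 0.002) and, against STAT3, 2.32 ± 0.43 (adjusted p = 0.00049). Without STAT3 replicate 3 the latter value of Nupr1 was 3.09. Atf4 RNA itself moved little: 166, 176 and 163 CPM with the empty vector, 200, 200 and 208 in STAT3 cells, and 217, 215 and 214 in Y640F cells. Atf4 differed from the empty vector by 0.27 ± 0.04 with STAT3 (adjusted p = 5.2e-05) and 0.36 ± 0.04 with Y640F (adjusted p = 3e-06), and Y640F lay above STAT3 by 0.09 ± 0.04 (adjusted p = 0.075). The remaining tested regulators were higher with Y640F by adjusted p alone, Atf5 by 0.68 (adjusted p = 2e-05) and Ppp1r15a, the phosphatase subunit that reverses eIF2 phosphorylation, by 0.31 (adjusted p = 0.0029). All 7 regulators tested in HPC7 were thus higher by adjusted p with Y640F over the empty vector, where 29.5% of all genes were higher. Among these 7 the direction of Nupr1 was fixed by the filter.

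Among the enzymes and transporters of HPC7, Slc6a9 and Pycr1 rose with Y640F. Slc6a9 reached 17, 15.9 and 14.7 CPM, so that the 3 vectors formed separate steps, with a log2 fold change of 3.71 ± 0.13 over the empty vector (adjusted p = 1.3e-10) and 2.20 ± 0.11 over STAT3 (adjusted p = 1.6e-09). Pycr1 reached 20.9, 18.4 and 16.6 CPM, also above the STAT3 libraries (1.31 ± 0.09 over the empty vector, adjusted p = 6.8e-08; 0.64 ± 0.09 over STAT3, adjusted p = 3.2e-05). Psph went from 52.3, 55.7 and 57.5 CPM to 116, 108 and 106, an increase of 0.995 ± 0.047 on the log2 scale (adjusted p = 1.8e-09), just under the minimum. Without empty vector replicate 2 or 3, or Y640F replicate 2 or 3, Psph passed it, at 1.00 to 1.03. Psph and the arginine transporter Slc7a1 lie on chromosome 5, whose median was 0.332 in the same contrast. By adjusted p alone the one-carbon enzyme Mthfd2 (0.74 ± 0.04) and the proline and ornithine enzyme Aldh18a1 (0.75 ± 0.04) were also higher, as were Slc7a1 (0.43), Psat1 (0.41) and the leucine transporter Slc7a5 (0.17). Phgdh (-0.06, adjusted p = 0.51), Shmt2 (0.08, adjusted p = 0.088) and Slc3a2 (0.00, adjusted p = 0.98) did not pass. Psat1, Aldh18a1 and Slc3a2 lie on chromosome 19, whose median was 0.237 in that contrast. Relative to it they were at 0.175, 0.509 and -0.239. Against STAT3, Y640F called 4 of 35 members higher (Trib3, Slc6a9, Nupr1 and Ddit3) and 0 lower, where 6.17% of genes rose and 1.73% fell. Here and in the next count the direction of Nupr1 was again fixed by the filter. By adjusted p alone 15 of 18 Atf4-linked members were higher and 0 lower (median 0.42), against 27.1% and 24.1% of all genes. The contrasts against the empty vector share its 3 libraries, and those of Y640F share the Y640F libraries.

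The unfolded-protein genes of HPC7 did not follow the Atf4-linked genes. Xbp1 was at 62.7, 73.8 and 69 CPM with the empty vector, 71.7, 66.4 and 76.2 in STAT3 cells and 68.2, 61.8 and 59.6 in Y640F cells, and these groups overlap (Y640F against the empty vector -0.12 ± 0.07, adjusted p = 0.16). Hspa5, the chaperone BiP that holds the sensors inactive, was at 1090, 1160 and 1040, at 1110, 1090 and 1180, and at 1240, 1250 and 1220 CPM. Every Y640F library of Hspa5 was above the others, yet the difference was 0.18 ± 0.05 (adjusted p = 0.0044) and the median of its chromosome, 2, was 0.474. By adjusted p alone Dnajb9 (-0.55), the protein disulphide isomerases Pdia4 (-0.42) and Pdia6 (-0.28), Hsp90b1 (-0.30), Ern1 (-0.23) and the secreted survival factor Manf (-0.21) were lower with Y640F. Herpud1 (0.46), Eif2ak4 (0.26) and Dnajc3 (0.26) were higher, and Eif2ak4 too lies on chromosome 2. The other 7 (Xbp1, Eif2ak3, Atf6, Sdf2l1, Hyou1, Creld2 and Calr) did not pass. Against STAT3 the balance was lower still: 12 of 17 were lower and 3 higher by adjusted p alone (median -0.26), where 24.1% of genes were lower and 27.1% higher. None of the 12 chaperones was called in any of the 3 HPC7 comparisons by edgeR or DESeq2. Of them 6, 9 and 12 had an unadjusted p under 0.05 by edgeR in STAT3 against the empty vector, Y640F against the empty vector and Y640F against STAT3. The share of all genes at that unadjusted threshold was not counted. By adjusted p alone 23.3% of all genes were higher and 25.3% lower in the first contrast, and 29.5% and 27.8% in the second.

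STAT3 in HPCLSK called 1 of 39 members higher and 1 lower, where 2.8% of all genes rose and 1.79% fell. Vldlr was at 118, 181 and 217 CPM with the empty vector and at 44, 41.6 and 45.6 with STAT3 (log2 fold change -1.98 ± 0.19, adjusted p = 9.5e-05). With Y640F it was at 138, 167 and 182 CPM, which overlaps the empty vector (-0.09 ± 0.18, adjusted p = 0.69) and lies above STAT3 (1.90 ± 0.19, adjusted p = 1.9e-05). Vldlr was thus lower in the STAT3 cells alone. Atf5, an Atf4-related transcription factor, was at 8.27, 14.8 and 18.3 CPM with the empty vector and 31.3, 26.9 and 26.3 with STAT3, which is higher by 1.01 ± 0.25 on the log2 scale (adjusted p = 0.023). That call of Atf5 did not hold without STAT3 replicate 1 (0.93, adjusted p = 0.094), STAT3 replicate 2 (1.05, adjusted p = 0.059), empty vector replicate 1 (0.77, adjusted p = 0.042) or empty vector replicate 2 (1.06, adjusted p = 0.057). At that threshold with no fold minimum, 2 Atf4-linked members were higher (Atf5 and Ddit3) and 1 lower of 22 (median 0.22), where 7.7% of genes were higher and 6.37% lower. Of the 17 unfolded-protein members 0 passed by adjusted p with edgeR or DESeq2 (median 0.01) and 2 had an unadjusted p under 0.05 by edgeR, neither of them among the 12 chaperones.

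In HPCLSK with Y640F the called Atf4-linked genes were Slc7a11, Nupr1, Asns, Atf5 and Slc6a9, of which Nupr1 and Slc6a9 were also called in HPC7. For Nupr1 the direction in HPC7 was fixed by the filter. Slc7a11 was at 5.86, 17.4 and 18.8 CPM with the empty vector, 29.5, 29.7 and 34.1 in STAT3 cells, and 409, 125 and 92.8 in Y640F cells. The lowest Y640F library of Slc7a11 was above the highest library of either other group, and Y640F replicate 1, one of the libraries that stood apart, held by far the highest value. The log2 fold change of Slc7a11 was 3.85 ± 0.56 over the empty vector (adjusted p = 0.00018) and 2.75 ± 0.53 over STAT3 (adjusted p = 0.0014). Without Y640F replicate 1 these values were 2.88 (adjusted p = 7.3e-06) and 1.79 (adjusted p = 0.00024), and without empty vector replicate 1 as well the first was 2.56. STAT3 against the empty vector gave 1.10 ± 0.58 (adjusted p = 0.25) for Slc7a11.

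Nupr1 was at 1.17, 1.4 and 2.1 CPM, 2.41, 2.39 and 1.73 CPM, and 14.7, 13.2 and 9.01 CPM with the empty vector, STAT3 and Y640F (2.95 ± 0.25 over the empty vector, adjusted p = 3.7e-06; 2.45 ± 0.24 over STAT3, adjusted p = 1.8e-05). Asns was at 26.3, 49.6 and 51.8 CPM, then 63.1, 57 and 56.2, then 156, 128 and 94.2 (1.55 ± 0.23 over the empty vector, adjusted p = 0.00019). In both genes all Y640F libraries lay above all others of the line. Against STAT3 Asns rose by 1.10 ± 0.23 (adjusted p = 0.0021), which became 0.89 (adjusted p = 0.0047) without Y640F replicate 1, under the fold minimum. Atf5 stood at 36.9, 41.2 and 24.5 CPM with Y640F, above the empty vector (1.28 ± 0.25, adjusted p = 0.0012) and overlapping STAT3 (0.27, adjusted p = 0.36), and without both libraries that stood apart the first value was 0.95 (adjusted p = 0.0016). Slc6a9 was at 2.85, 5.88 and 8.52 CPM, then 12.4, 7.28 and 14.3, then 16.2, 12.8 and 7.99, so that the Y640F and empty vector groups overlapped (1.06 ± 0.37, adjusted p = 0.029). The call of Slc6a9 was lost without Y640F replicate 1 (0.78, adjusted p = 0.095) or 2 (1.01, adjusted p = 0.07), and without empty vector replicate 1 (0.75, adjusted p = 0.086) or 2 (1.06, adjusted p = 0.072).

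Of the 4 regulators called in HPC7, Nupr1 alone, whose direction there was fixed by the filter, was also called in HPCLSK. Ddit3, Ddit4 and Trib3 were not. Ddit3 was at 11.6, 11.9 and 13.1 CPM with the empty vector, 15.6, 15.3 and 15.9 in STAT3 cells and 15.4, 14.8 and 14.1 in Y640F cells. Both STAT3 forms lay above the empty vector, Y640F by 0.27 ± 0.08 (adjusted p = 0.017) and STAT3 by 0.35 ± 0.09 (adjusted p = 0.02), and Ddit3 overlapped between them. Trib3 was at 0.878, 4.69 and 5.23 CPM, then 9.08, 6.39 and 10.6, then 15, 9.19 and 3.73, a Y640F difference of 1.28 ± 0.53 (adjusted p = 0.061) with overlapping groups. Without Y640F replicate 3, the lowest of its group, Trib3 was called higher at 1.68 (adjusted p = 0.011). Chac1, at 0.81 with an adjusted p of 0.059, was likewise called without Y640F replicate 3 (1.05, adjusted p = 0.021) or empty vector replicate 3 (1.08, adjusted p = 0.035). Ddit4 did not pass (0.24, adjusted p = 0.066), and neither did Pycr1 (0.03, adjusted p = 0.91) or Ppp1r15a (0.09, adjusted p = 0.76). Ppp1r15a was at 73.6, 33.2 and 33.9 CPM with the empty vector and at 50.4, 48.7 and 49.1 with Y640F. Its highest value was that of empty vector replicate 1, one of the libraries that stood apart. Atf4 RNA was at 270, 234 and 230 CPM, then 264, 268 and 253, then 379, 374 and 353 CPM. Its Y640F libraries were above all others, by 0.59 ± 0.06 over the empty vector (adjusted p = 2.2e-05) and 0.49 ± 0.06 over STAT3 (adjusted p = 0.00011).

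**Figure D3:**
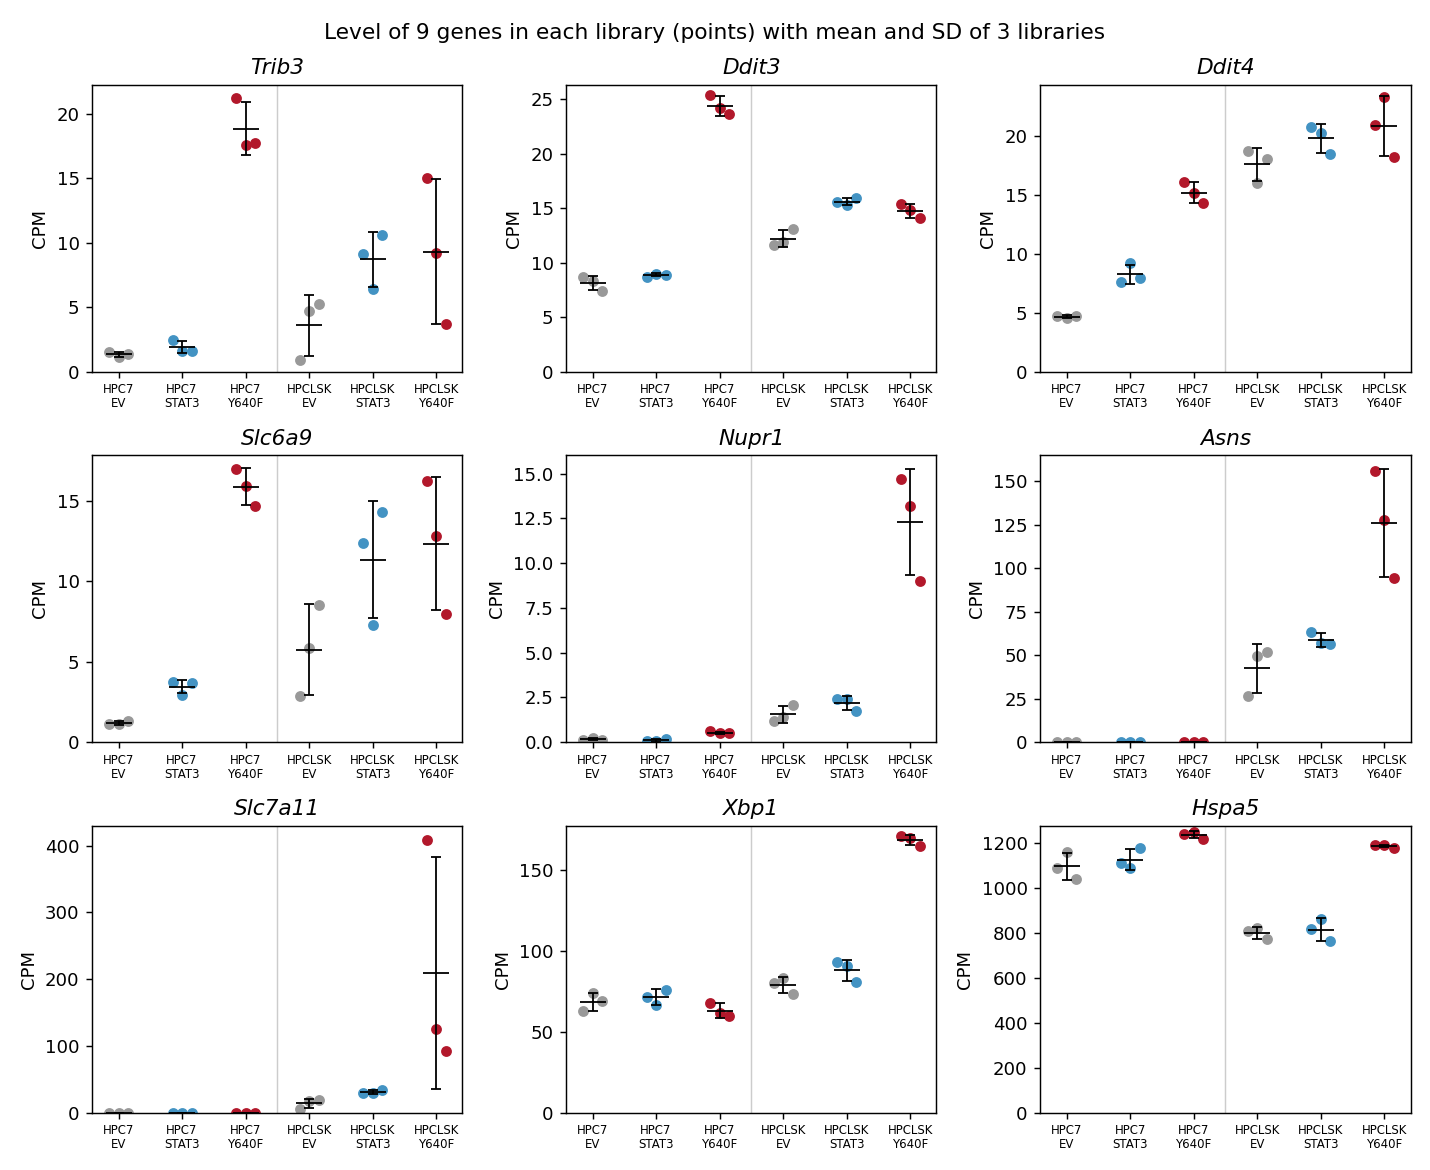
CPM per library of 9 members in the 6 groups (each point 1 library, bars the mean and SD of 3 libraries, linear axes from 0). Trib3, Ddit3 and Ddit4 are highest in the HPC7 Y640F libraries or step up there, Slc7a11 and Asns are near 0 in HPC7 and highest with Y640F in HPCLSK, and Xbp1 steps up with Y640F in HPCLSK only.

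All 5 transporters tested in HPCLSK were higher with Y640F over the empty vector by adjusted p alone (Slc7a11, Slc6a9, Slc7a5 0.36, Slc7a1 0.33 and Slc3a2, the heavy chain that partners Slc7a5 and Slc7a11, 0.20). In that contrast 30.6% of all genes tested were higher and 28% lower by adjusted p alone. Of the 8 enzymes 4 were higher (Asns, Mthfd2 0.74, Psph 0.58 and Shmt2 0.32), and Psat1 was lower by that measure (-0.23, adjusted p = 0.0037); Phgdh (0.14, adjusted p = 0.18) and Aldh18a1 (0.05, adjusted p = 0.59) did not pass. Without both HPCLSK libraries that stood apart, 11 of the 22 Atf4-linked members were higher and 2 lower by adjusted p alone, 3 were called higher, and the median was 0.26. The share of all genes by adjusted p alone was not counted without these libraries. Over STAT3, Y640F called 4 of 39 members higher (Slc7a11, Nupr1, Vldlr and Asns) and 0 lower, where 8.11% of genes rose and 6.09% fell. By adjusted p alone 9 of the 22 Atf4-linked members were higher and 0 lower (median 0.25), against 28.6% and 25.2% of all genes.

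Among the sensors of HPCLSK, Xbp1 rose with Y640F. It was at 80.5, 83.1 and 73.6 CPM with the empty vector, 93, 90.6 and 80.9 in STAT3 cells, and 171, 170 and 165 in Y640F cells (1.09 ± 0.06 over the empty vector, adjusted p = 3.4e-07; 0.93 ± 0.06 over STAT3, adjusted p = 1.5e-06). The Y640F libraries of Xbp1 lay close together and well above the rest, and these counts do not separate its spliced from its unspliced form. Atf6 was also higher by adjusted p alone, from 82, 98.9 and 96.4 CPM to 170, 152 and 137 (0.72 ± 0.09, adjusted p = 5.4e-05). Ern1, whose product splices Xbp1, was lower by adjusted p, from 165, 202 and 205 CPM to 120, 126 and 126 (-0.62 ± 0.09, adjusted p = 0.00012), as was Eif2ak4 (-0.43, adjusted p = 3e-04). Eif2ak3 did not pass (0.06, adjusted p = 0.47).

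Hspa5 in HPCLSK was at 809, 820 and 772 CPM with the empty vector, 819, 863 and 763 in STAT3 cells and 1190, 1190 and 1180 in Y640F cells, with differences of 0.57 ± 0.06 over the empty vector (adjusted p = 1.1e-05) and 0.54 ± 0.06 over STAT3 (adjusted p = 2.2e-05). All Y640F libraries of Hspa5 were above all others, by less than 2-fold. Of the 12 chaperones 7 were higher with Y640F over the empty vector by adjusted p alone: Hspa5, Creld2 (0.47), Dnajc3 (0.45), the Hsp40-associated factor Sdf2l1 (0.42), Manf (0.27), the Hsp70-like Hyou1 (0.21) and Pdia6 (0.16). That compares with 30.6% of all genes higher and 28% lower. Dnajb9 (-0.37), Pdia4 (-0.20) and Calr (-0.19) were lower, 3 of 12 and near the share of all genes, and Hsp90b1 (0.07, adjusted p = 0.26) and Herpud1 (-0.11, adjusted p = 0.11) did not pass. Dnajb9 and Pdia4 were thus lower with Y640F in both lines, where the values were -0.55 and -0.42 in HPC7. No chaperone was called by edgeR or DESeq2, with 10 of 12 at an unadjusted p under 0.05 by edgeR over the empty vector and 9 over STAT3.

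The lines' responses were compared by testing the difference of the log2 fold changes (HPCLSK minus HPC7). For STAT3 against the empty vector edgeR and DESeq2 called 0 of 39 members, where 6.16% of all genes were called higher and 2.09% lower; 13 had an unadjusted p under 0.05 by edgeR, and Atf5 alone was called (1.01, adjusted p = 0.01) when HPCLSK empty vector replicate 3 was left out. For Y640F against the empty vector 6 of 39 were called, 1 higher and 5 lower, where 7.74% of genes were higher and 7.25% lower. The response to Y640F was smaller in HPCLSK for Slc6a9 (-2.65 ± 0.45, adjusted p = 6.8e-05), Trib3 (-2.52 ± 0.61, adjusted p = 0.002), Ddit4 (-1.45 ± 0.14, adjusted p = 1.6e-07), Ddit3 (-1.31 ± 0.11, adjusted p = 1.6e-08) and Pycr1 (-1.29 ± 0.20, adjusted p = 2.4e-05), and larger for Xbp1 (1.22 ± 0.10, adjusted p = 2.1e-08). With both HPCLSK libraries that stood apart left out, the value of Trib3 was -3.46. For Y640F against STAT3, Trib3, Slc6a9, Ddit3 and Pycr1 differed in the same direction and Xbp1 again lay higher, 5 of 39 members in all, where 4.48% of genes were called higher and 8% lower. By adjusted p alone 12 members were higher and 10 lower in that contrast (23.2% and 22.1% of all genes), and 4 higher and 7 lower for STAT3 against the empty vector (16.5% and 13.9%). Of these Pycr1 (-1.03) came under the minimum without HPCLSK Y640F replicate 3 (-0.90), HPCLSK STAT3 replicate 2 (-0.93) or HPC7 Y640F replicate 1 (-0.94). Nupr1 (1.16 ± 0.61, adjusted p = 0.13) and Mthfd2 (0.00 ± 0.15, adjusted p = 1) did not pass for Y640F against the empty vector, which does not show that the lines responded alike. Asns, Vldlr, Slc7a11 and Chac1 are among the 39 but allow no such comparison, because they were at or near 0 in HPC7. Of the 12 chaperones 9 had a higher response in HPCLSK and 1 a lower one by adjusted p alone (median 0.29, against 25.8% higher and 22.9% lower over all genes), and none was called by edgeR or DESeq2, with 10 at an unadjusted p under 0.05 by edgeR; Hspa5 differed by 0.40 (adjusted p = 0.00014), where the median of its chromosome was -0.408.

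**Figure D4:**
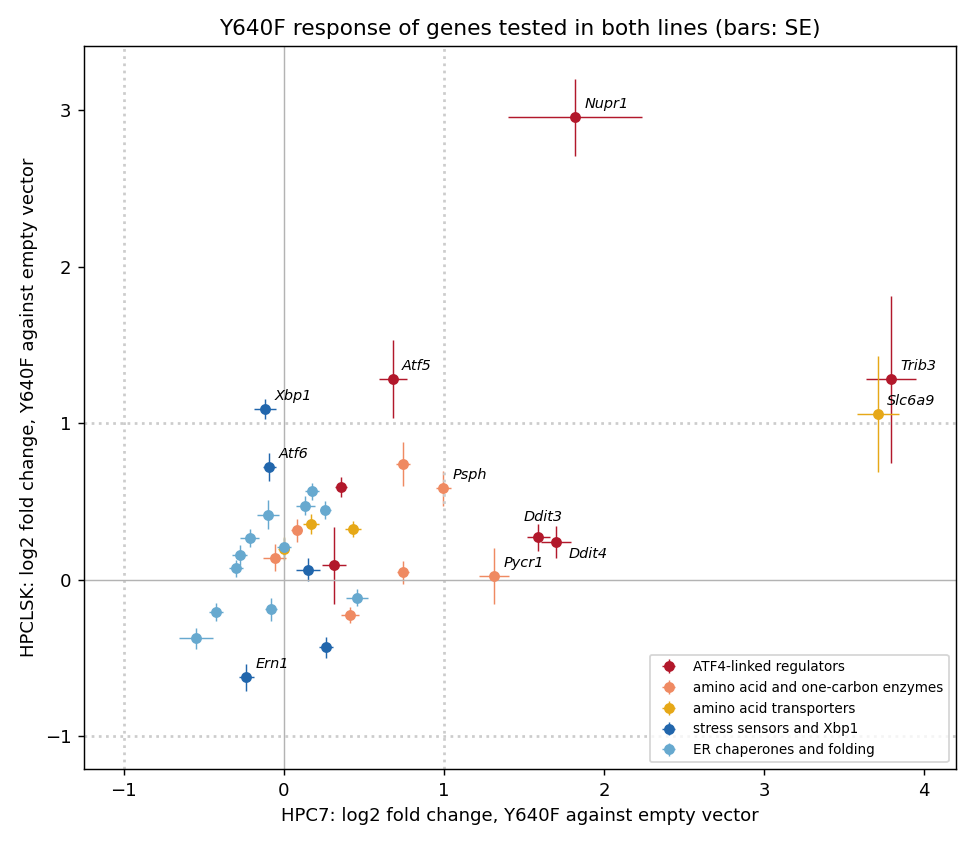
Log2 fold change of Y640F against the empty vector in HPC7 (horizontal) and HPCLSK (vertical) for each member tested in both lines, with standard errors; dotted lines mark a 2-fold change. Trib3 and Slc6a9 lie far to the right at about 3.79 and 3.71, Nupr1 is high on both axes, and Xbp1 lies above the 2-fold line only on the HPCLSK axis.

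Within the empty vector and Y640F groups of HPCLSK the Atf4-linked members varied more than the unfolded-protein members did. With STAT3 in HPCLSK the 2 classes were close, with median coefficients of variation of 5.4% and 5.1%. Over members at 1 CPM or more, the median coefficient of variation of the Atf4-linked genes was 12.7% with the empty vector, 5.4% with STAT3 and 11.5% with Y640F in HPCLSK, against 6.2%, 2.3% and 3.8% in HPC7, and that of the unfolded-protein genes was 2.4 to 5.5% in all 6 groups. The Atf4-linked set held 22 members in HPCLSK and 17 in HPC7, whose libraries were deeper, so the lines are not compared on like terms. The highest values were those of Slc7a11 with 83.3% among the Y640F libraries of HPCLSK and Trib3 with 65.9% among its empty vector libraries. Libraries kept an order over these genes: HPCLSK empty vector replicate 1 was the lowest of its group in 17 of 22 Atf4-linked members, and Y640F replicate 3 was the lowest in 19 of 22. In HPC7, Y640F replicate 3 was the lowest in 14 of 17.

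The other genes of these pathways, in lists made with earlier results of these data known, were measured in the same fits. Of 20 cytosolic aminoacyl-tRNA synthetases, many of which Atf4 is known to regulate, edgeR and DESeq2 called 0 in every comparison within a line, though by edgeR 12, 15 and 10 in HPC7 and 5, 12 and 13 in HPCLSK had an unadjusted p under 0.05 (STAT3 against empty vector, Y640F against empty vector, Y640F against STAT3). With Y640F against the empty vector 10 synthetases were higher and 5 lower by adjusted p alone in HPC7, where 29.5% of all genes were higher and 27.8% lower, and 11 higher and 1 lower in HPCLSK, where the shares were 30.6% and 28%. Of 12 genes of the eIF2 machinery edgeR and DESeq2 likewise called 0, with 7, 8, 4, 3, 8 and 11 at an unadjusted p under 0.05 by edgeR in the same order. For either list the share of all genes at that unadjusted threshold was not counted. Among 24 other Atf4 targets, 4 of 16 tested were called higher and 1 lower in HPC7 with Y640F against the empty vector (4.54% and 3.64% of all genes), and 3 of 21 higher and 1 lower in HPCLSK, near the shares of all genes there (9.62% and 6.57%). The largest changes of that list were in Stc2, Gadd45a and Atf3. Stc2, a secreted glycoprotein, had 65 counts with STAT3 in HPCLSK against 2 with the empty vector (ratio 40.2, counting interval 10.7 to 339) and 0 with Y640F (at least 25.5-fold higher with STAT3, with the 0 set to 3 counts over the group). Gadd45a, a growth arrest gene, had 65 counts with the empty vector in HPC7, 16 with STAT3 and 2 with Y640F, a ratio of 40.3 for the empty vector over Y640F (10.7 to 340). Atf3, a transcription factor of the stress response, was at 2.33 ± 0.64 CPM with the empty vector, 3.79 ± 1.83 with STAT3 and 22.7 ± 9.47 with Y640F in HPCLSK (3.23 ± 0.36 over the empty vector, adjusted p = 3e-05), and at 0 counts in the HPC7 empty vector and Y640F libraries.

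Of 26 further genes of endoplasmic reticulum quality control, edgeR and DESeq2 called 0 of 22 tested in each of the 3 comparisons of HPC7. Of these 10, 15 and 17 had an unadjusted p under 0.05 by edgeR, a threshold at which all genes were not counted. By adjusted p alone 29.5% of all genes were higher and 27.8% lower with Y640F over the empty vector in HPC7. In HPCLSK 2 of 25 (8%) rose with Y640F against the empty vector, no larger a share than the 9.62% of all genes. There 13 were higher and 4 lower by adjusted p alone, against 30.6% and 28% of all genes. Edem1, which directs misfolded glycoproteins to degradation and is a target of Xbp1, went from 134 ± 8.25 CPM with the empty vector to 317 ± 46.5 with Y640F (1.24 ± 0.10, adjusted p = 2.4e-06), and in HPC7 was at 115 ± 3.09 and 89.5 ± 4.02. Wfs1, a membrane protein of the endoplasmic reticulum, was at 0.996 ± 0.162 and 3.05 ± 0.33 CPM in HPCLSK (1.63 ± 0.25, adjusted p = 0.00024) and at 0 counts in HPC7. Creb3, a membrane-bound transcription factor, was at 10.5 ± 0.58 CPM with STAT3 and 22.4 ± 3.04 with Y640F in HPCLSK (1.08 ± 0.12, adjusted p = 3.1e-05).

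Markers of blood cell types moved with the same groups. All 10 progenitor markers were at 5 CPM or more in all 6 groups, but some moved with the vectors. In HPC7 mean Cd34 was at 609 CPM with the empty vector, 41.2 with STAT3 and 193 with Y640F, and fell in both contrasts (log2 fold changes -3.89 and -1.64). In HPCLSK with Y640F against the empty vector Kit fell from 744 to 259 CPM and Cd34 from 2340 to 983, and 1 of the 10 rose. In HPCLSK the 8 monocyte and macrophage markers summed to 845 to 1090 CPM with the empty vector, 1110 to 2030 with STAT3 and 6360 to 9420 with Y640F, and Ly86 was at 0 counts with Y640F. The 8 granulocyte markers of HPCLSK summed to 7710 to 11700, 11700 to 16400 and 4140 to 7730 CPM, mostly from Mpo (7920, 11300 and 4680 CPM on average). With STAT3 against the empty vector 5 of these 8 rose and 0 fell (median log2 fold change 1.97), where 2.8% of all genes rose and 1.79% fell. With Y640F against the empty vector 3 of the 8 fell and 1 rose (Cebpe, from 6.89 to 32.1 CPM). The 8 mast cell and megakaryocyte markers summed to 5060 to 7030, 3510 to 3830 and 1270 to 1820 CPM, with the largest part from Cpa3 (3420, 2600 and 721 CPM on average). Of the 7 tested with Y640F against the empty vector, 4 fell and 1 rose (Vwf, from 3.26 to 22 CPM). Mean Mcpt8 went from 61.1 to 89.6 CPM. The part of these shifts in the changes of Slc7a11, Asns, Nupr1, Xbp1, Vldlr and Atf5 in HPCLSK was not tested. In HPC7 the monocyte markers summed to 20 to 32.2 CPM over all groups, with Ly86 and Ms4a6c at 0 counts in every group, and granulocyte markers to 332 to 670 CPM with the empty vector and 127 to 148 with Y640F. The erythroid sum in HPC7 was 698 to 794 CPM with the empty vector and 783 to 827 with Y640F, and its part in the changes of Trib3, Ddit3 and Slc6a9 was not tested.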

How the data were processed

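RNA was sequenced from 18 libraries, 3 in each of 6 groups. The authors ran featureCounts 1.5.1, per the file headers, over exons of GENCODE M13 with strand setting 2 to give 1 table of raw counts for each library, and these deposited counts are the unit used here. STAR and Trimmomatic and the build GRCm38 (mm10) come from the submitters' processing notes, which also name BWA and MACS2 without saying for which data. The series text and the sample protocol name different library kits (Lexogen SENSE and TruSeq Stranded), so the chemistry is not settled. The values are whole numbers.

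Gene IDs were matched to symbols for 50376 of 50686 genes (45737 with their version, 4639 without it). Within a line, the 9 libraries were fitted with edgeR 4.0.16 in R 4.3.3 (TMM, filterByExpr, group means, glmQLFit and glmQLFTest, 6 residual degrees of freedom); the baseline and the differences between lines used all 18 libraries (12 degrees of freedom). CPM were scaled by TMM over the 9 libraries of a line, and over all 18 for baseline levels per kilobase. Benjamini-Hochberg adjustment ran over the 12683 (HPC7), 12552 (HPCLSK) or 13891 (both) genes tested. Counts at an unadjusted p under 0.05 are given without the share of all genes at that threshold, which was not counted. Values after ± are SD for levels and SE for log2 fold changes. The scripts were tested on simulated data. Counting intervals are 95% exact binomial, and they and the floor of 3 counts cover counting error only.

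The 40 members and the other lists were chosen with earlier results of these data known. Per-library values are given for members called in at least 1 of the 6 comparisons within a line and for Atf4, Ddit3, Xbp1 and Hspa5; from other pathway lists, up to 3 called genes with the largest change are named. Dnajc3, Psph, Atf6, Ern1 and, in HPCLSK, Ppp1r15a were given per library or by range after their values were seen. Mthfd2, Atf5, Ppp1r15a in HPC7 and others were given by value, also after their values were seen. Markers of cell types came from fixed lists. Alternatives were DESeq2 1.42.0 with its size factors, other filters, no fold minimum, a test against the 2-fold minimum (glmTreat), a replicate block, and leaving out each library. Same-numbered libraries of different groups correlated by -0.191 to 0.097 in their deviations from group means, so the numbers were not used to pair them. Promoter windows were searched for 5 motifs. The 12 chromatin samples of the series were not analysed here.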

Additional observations from a re-analysis of the deposited data

Results flagged for a closer look

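The following members responded differently to a vector in HPCLSK and HPC7 by the test of the difference itself (edgeR, all 18 libraries, log2 fold change in HPCLSK minus that in HPC7). For Y640F against the empty vector these were Trib3 (-2.52, SE 0.61, adjusted p = 0.002), Slc6a9 (-2.65, SE 0.45, adjusted p = 6.8e-05), Ddit4 (-1.45, SE 0.14, adjusted p = 1.6e-07), Ddit3 (-1.31, SE 0.11, adjusted p = 1.6e-08), Pycr1 (-1.29, SE 0.20, adjusted p = 2.4e-05) and Xbp1 (1.22, SE 0.10, adjusted p = 2.1e-08). For Y640F against STAT3 they were Trib3 (-3.20, SE 0.56, adjusted p = 0.00013), Slc6a9 (-2.03, SE 0.39, adjusted p = 0.00032), Ddit3 (-1.52, SE 0.11, adjusted p = 3e-09), Pycr1 (-1.03, SE 0.19, adjusted p = 0.00025) and Xbp1 (1.12, SE 0.10, adjusted p = 7.7e-08). Stat3 RNA differed between the lines in the same contrasts (0.85 and 2.24), and its part in these differences was not tested.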

How the results depend on the processing

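Of the member counts recomputed under alternatives, 145 stayed within 1.5 times the main count and 19 did not; of the single-gene values, 706 kept direction and call, 38 kept direction but lost the call, and 0 reversed. DESeq2 gave the same number of called members in every comparison. With no fold minimum the counts were 16, 25 and 30 in HPC7 (STAT3 against empty vector, Y640F against empty vector, Y640F against STAT3), 28 and 21 for the Y640F contrasts of HPCLSK, 31 for the baseline and 11, 25 and 22 for the differences between lines; fewer conditions make more calls by construction. A test against a 2-fold change gave 1 for STAT3 and 3 for Y640F against the empty vector in HPCLSK, and 3 for the line difference of Y640F against STAT3. With the replicate block STAT3 against the empty vector in HPCLSK gave 1 (Vldlr), Y640F against the empty vector gave 5 and the baseline 12; the numbers do not pair the libraries. Leaving out both HPCLSK libraries that stood apart (chosen after seeing the data) also gave 1 for STAT3. Leaving out each library in turn gave 1 to 1, 6 to 7 and 4 to 4 in HPC7, 1 to 2, 5 to 8 and 3 to 4 in HPCLSK, 12 to 13 for the baseline, and 0 to 1, 6 to 6 and 4 to 5 for the differences between lines. In HPC7, applying the fold minimum after subtracting each chromosome's median (also added after seeing the data) left 1, 6 and 4. Depth limits Nupr1 in HPC7, Stc2, Gadd45a and the genes near 0 there.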

Other observations

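Beyond the genes named by rule, and chosen after their values were seen, other Atf4 targets of the wider list differed between the vectors. In HPC7 with Y640F against the empty vector the neutral amino-acid transporter Slc1a4 (3.70-fold), the transcription factor Jdp2 (2.83-fold), the alanine aminotransferase Gpt2 (2.76-fold) and the leucine sensor Sesn2 (2.58-fold) rose. In HPCLSK Cebpb, a transcription factor that pairs with Atf4 family members, rose 8.65-fold with Y640F over the empty vector. Tnfrsf10b, a death receptor that Ddit3 is known to activate, fell with STAT3 over the empty vector in both lines (log2 fold change -1.12 in HPC7 and -1.79 in HPCLSK). With Y640F over the empty vector Tnfrsf10b was at 0.72 in HPC7, under the fold minimum, and fell in HPCLSK (-1.71), a difference between lines of -2.42 (adjusted p = 8.2e-06). Over STAT3, Tnfrsf10b rose with Y640F in HPC7 (1.84), and in HPCLSK the value was 0.08 (adjusted p = 0.89).

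In the baseline comparison, 11 of 12 genes of the eIF2 machinery and 17 of 20 tRNA synthetases were lower in HPCLSK than in HPC7 by adjusted p alone (medians -0.90 and -0.46), where 39% of all genes tested were lower. Of the eIF2 genes 5 were called lower, and of the synthetases 4, where 13.6% of all genes were called lower.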
